A study of Mus musculus with 36 samples.

Results

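Mouse embryonic stem (ES) cells treated with retinoic acid (RA) for 2 days were compared with ES cells kept for 5 days without leukemia inhibitory factor (LIF), 2 routes by which such cells leave self-renewal. The samples were picked by their labels, with earlier results of these data known: the RA day 2 samples of the medium and low reporter gates and the day 5 samples of the high, medium and low gates. They make up 5 of the 18 RNA samples of the study and, with each RNA hybridised to both chips, 10 of its 36 arrays. RA day 2 cells were plated at 2000000 cells per dish in medium that lacked LIF and held 0.1 uM RA. Day 5 cells were plated at 500000 cells per dish in the same serum medium without LIF and without RA. Both arms carried the Oct4:eGFP reporter, which reports activity of the Oct4 gene (Pou5f1), both grew on gelatin, and both were dissociated with trypsin and sorted by eGFP before total RNA was extracted and amplified in 2 rounds. Stock cultures were kept on mitomycin-treated embryonic fibroblasts in 1000 U per mL LIF. RA, time and plating density all differ between the arms and cannot be told apart, and no high gate sample of RA day 2 was analysed here. Separate cultures are not named in the labels, so the p-values may rest on technical spread alone.

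RA is made from vitamin A, is carried in the cytoplasm by the CRABP proteins, binds RAR and RXR receptors at response elements in DNA, and is broken down by CYP26 enzymes. In ES cells and embryos it induces Stra8 and Hox genes and favours neural over mesodermal fates. Removal of LIF from serum cultures stops STAT3 signalling, and over the following days such cultures form cells like those of the primitive streak, the mesoderm and simple epithelia.

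Signals are the deposited MAS5 intensities, which were scaled to a common trimmed mean within each chip type. In every sentence on a gene, the signals of RA day 2 are given for the medium and then the low gate, and those of day 5 for the high, medium and low gates. Differences are log2(RA day 2) minus log2(day 5) ± SE from a limma fit of log2(signal + pseudocount) with terms for arm and gate over all 18 samples, for 2 RA day 2 and 3 day 5 samples, and "past the test" means a Benjamini-Hochberg adjusted p under 0.05 within the chip. Rises and falls are those of RA day 2 relative to day 5 and not changes from cells in LIF. The pseudocount (4 on chip A, 7 on chip B) understates the change of dim genes. All 10 arrays belonged to the same scan day. The 5 chip A arrays came from 1 production lot, whereas on chip B the RA day 2 arrays came from another lot than the day 5 arrays, so that lot and arm cannot be told apart there. Arrays of cells in LIF, of day 3 without LIF and of RA day 1 were scanned on other days than these 10. Scan day and arm cannot be told apart where their signals are set beside those of the 2 arms. Pearson correlations over the tested probe sets were 0.979 between the RA day 2 samples, 0.974 to 0.98 among day 5 samples and 0.923 to 0.934 between the arms on chip A, and 0.935, 0.936 to 0.943 and 0.872 to 0.883 on chip B. The log2 ratio of 3' to 5' Actb probe sets, a measure of RNA integrity, was 0.789 and 0.863 in RA day 2 against 0.827 to 0.937 in day 5 on chip A, and 0.995 and 1.00 against 0.730 to 0.930 on chip B. 1 library outside the comparison, labelled high gate of day 1 without LIF, replicate 2, went against its label: it had a Stra8 signal of 685, against 3.65 to 6.33 in the other 3 day 1 samples. This library, called the doubted day 1 library below, entered the estimate of the spread, and leaving it out ended none of the 124 calls of named or listed genes. The signal ranges given below for day 1 without LIF leave it out. Where leaving out 1 of the 5 samples ended a call, the p without that sample is given by its gate, as "without medium". This was checked for the 124 calls of named or listed genes alone. Genes under the brightness filter and those under "Other observations" were not checked, so a missing p there does not mean that the call held.

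Of 9833 measured genes, 420 (4.27%) were past the test and higher in RA day 2 cells and 502 (5.11%) were past the test and lower. Without the doubted day 1 library 598 were higher and 676 lower, so calls grew over all genes. The 922 genes had the same sign in the medium gates and in the low gates. The calls were made from these same samples, so the shared sign is no replication. The groups did not overlap for 2164 genes (22.0%) that were higher in RA day 2 and for 2327 genes (23.7%) that were lower. Lack of overlap between 2 and 3 samples was thus common, and it is given below as a description. The median difference over all genes was -0.0026, and the median 95% interval reached 0.479 to either side. The 3 marker genes were chosen with earlier results of these data known, so their differences are no check of the labels. Stra8, a germ cell gene induced by RA, gave signals of 345 and 279 in RA day 2, against 2.10, 1.66 and 2.15 in day 5 (log2 difference 5.98 ± 1.38, adjusted p = 0.012). Gbp2, an interferon-induced GTPase, was measured at 202 and 183 in RA day 2, against 1884, 1740.3 and 988 in day 5 (log2 difference -2.98 ± 0.41, adjusted p = 0.00026). Eomes, a T-box factor of the primitive streak and trophoblast, had signals of 19.2 and 10.7 in RA day 2, against 244, 304 and 282 in day 5 (log2 difference -4.01 ± 0.49, adjusted p = 8.4e-05). None of the 3 overlapped between the arms. In the plot of difference against level, Stra8 lies alone at the top and Eomes, Cyp26a1 and Lgals3 lie among the lowest points.

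**Figure D1:**
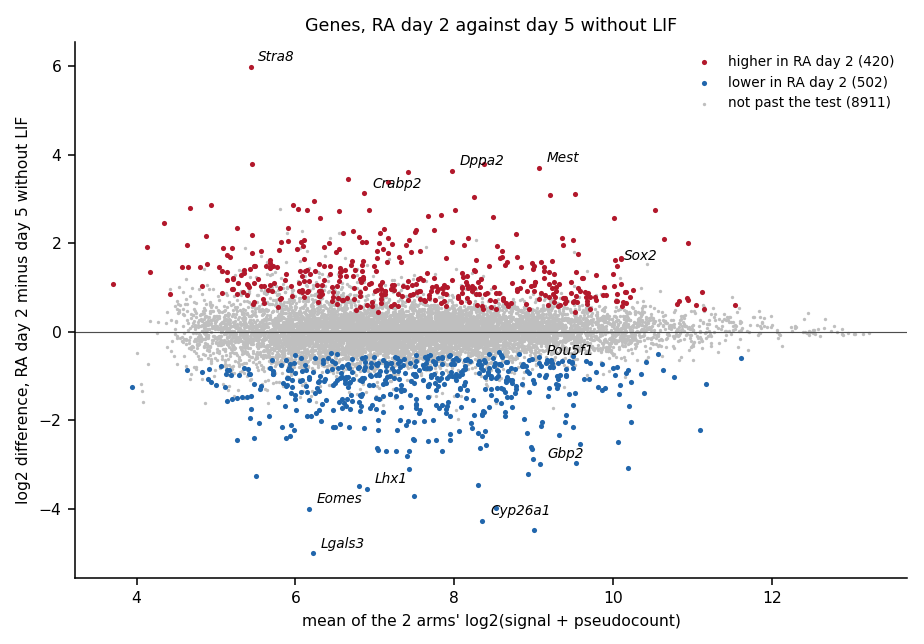
Difference between RA day 2 and day 5 without LIF (y axis, log2) against the mean level of the 2 arms (x axis, log2 of signal plus pseudocount), 1 point per measured gene. Red points are the 420 genes higher in RA day 2, blue points the 502 genes lower and grey points the genes not past the test; Stra8 lies highest, at 5.98, and Lgals3 lowest, at -5.01.

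Genes with the largest rises in RA day 2 relative to day 5 came from several classes. Trap1a, a gene for a tumour rejection antigen that ES cells also express, gave signals of 1318 and 1180.3 in RA day 2, against 79.0, 85.1 and 87.0 in day 5 (log2 difference 3.80 ± 0.24, adjusted p = 1.6e-07). Mest, a paternally expressed imprinted gene, was measured at 1711 and 2092 in RA day 2, against 141, 117 and 198 in day 5 (log2 difference 3.70 ± 0.44, adjusted p = 6.6e-05). Dppa2, a chromatin factor of pluripotent cells, had signals of 1037 and 748 in RA day 2, against 80.4, 65.8 and 57.8 in day 5 (log2 difference 3.62 ± 0.22, adjusted p = 1.2e-07). The 3 genes were each high in both RA day 2 samples and low in all 3 day 5 samples. In LIF, Trap1a was at 1144 to 1758, Mest at 162 to 192 and Dppa2 at 997 to 1575. Epha2, an ephrin receptor, gave signals of 568 and 361 in RA day 2, against 47.4, 47.1 and 30.2 in day 5 (log2 difference 3.38 ± 0.29, adjusted p = 3.1e-06). Chac1, an enzyme that degrades glutathione, was measured at 1740.0 and 1602 in RA day 2, against 234, 204 and 169 in day 5 (log2 difference 3.09 ± 0.21, adjusted p = 3.8e-06). Crct1, which encodes a cysteine-rich protein, rose by 3.78 ± 0.33 on the log2 scale (adjusted p = 3.9e-06). Lin37, a subunit of the DREAM repressor complex, rose by 3.04 ± 0.36 on the log2 scale (adjusted p = 0.00022) on 1 chip B probe set and was at 0.06 on the log2 scale (adjusted p = 0.93) on its other one. A fit of the medium and low gates alone missed Chac1 (adjusted p = 0.10) and Lin37 (adjusted p = 0.10). Both are read on chip B, where lot and arm cannot be told apart.

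Among the largest falls relative to day 5 were genes of epithelia and of the extracellular matrix. Lgals3, the lectin galectin-3, had signals of 19.4 and 3.44 in RA day 2, against 579, 446 and 283 in day 5 (log2 difference -5.01 ± 0.58, adjusted p = 6e-05). Sprr2b, a small proline-rich protein of cornifying epithelia, gave signals of 105 and 98.0 in RA day 2, against 3554, 2579 and 1719.7 in day 5 (log2 difference -4.47 ± 0.22, adjusted p = 7.7e-09). Igfbp3, a secreted binding protein for insulin-like growth factors, was measured at 84.4 and 91.5 in RA day 2, against 2079, 1761 and 897 in day 5 (log2 difference -3.98 ± 0.37, adjusted p = 8.1e-06). All 3 were lowest in the low gate of day 5 among the day 5 samples. In LIF, Lgals3 was at 66.7 to 137, Sprr2b at 83.3 to 114 and Igfbp3 at 24.9 to 46.2. The name of the Sprr2b probe set marks it as one that can bind messages of related genes, as do those of Crct1 and Slit3. Slit3, a secreted guidance ligand, had signals of 106 and 78.1 in RA day 2, against 1038, 1165 and 845 in day 5 (log2 difference -3.47 ± 0.36, adjusted p = 8.3e-05). Cyp2s1, a cytochrome P450, gave signals of 12.2 and 10.00 in RA day 2, against 136, 126 and 137 in day 5 (log2 difference -3.25 ± 0.30, adjusted p = 7.3e-06). Efemp1, the matrix protein fibulin-3, was measured at 50.2 and 51.1 in RA day 2, against 627, 512 and 419 in day 5 (log2 difference -3.10 ± 0.47, adjusted p = 0.0018). All 3 were low in both RA day 2 samples and did not overlap with day 5. The other large falls were Tmem185a (log2 difference -3.20 ± 0.24, adjusted p = 8e-07), a membrane protein, and Jade2 (log2 difference -3.71 ± 0.54, adjusted p = 0.0014), a PHD finger protein. The medium and low gates alone gave no call for Slit3 (adjusted p = 0.10), Efemp1 (adjusted p = 0.10) and Jade2 (adjusted p = 0.10). All 3 are read on chip B, where lot and arm cannot be told apart.

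Of 13 measured genes of RA metabolism, binding and direct response, 4 were higher in RA day 2 cells and 1 was lower (30.8% and 7.69%, against 4.27% and 5.11% of all genes), with a median difference of 0.25. The 4 that rose were Stra8, both cellular RA binding proteins and Dhrs3. Crabp1 had signals of 448 and 547 in RA day 2, against 74.8, 83.8 and 81.1 in day 5 (log2 difference 2.61 ± 0.24, adjusted p = 7.3e-06). Crabp2 gave signals of 281 and 379.7 in RA day 2, against 37.6, 35.4 and 39.1 in day 5 (log2 difference 3.12 ± 0.78, adjusted p = 0.018). Both CRABP genes were higher in the low than in the medium gate of RA day 2, and both lay far from the day 5 samples. Dhrs3, a reductase that returns retinaldehyde to retinol, was measured at 62.5 and 50.4 in RA day 2, against 14.4, 18.4 and 13.3 in day 5 (log2 difference 1.88 ± 0.53, adjusted p = 0.034). Cyp26a1, the enzyme that clears RA, had signals of 54.0 and 75.5 in RA day 2, against 1622, 1667 and 1438 in day 5 (log2 difference -4.26 ± 0.98, adjusted p = 0.011). The cells that received RA thus held less Cyp26a1 message than the 5-day cells that did not. Cyp26a1 was 84.2 to 112 at RA day 1, 11.3 to 13.8 at day 1 without LIF, 19.1 to 24.8 at day 3 and 10.3 to 21.1 in LIF. The doubted day 1 library, left out of the day 1 range, was at 463. The receptors gave no call: Rara had a log2 difference of 0.46 ± 0.17 (adjusted p = 0.16), Rarg of 0.46 ± 0.28 (adjusted p = 0.36), Rxra of 0.25 ± 0.20 (adjusted p = 0.51) and Rxrb of -0.31 ± 0.19 (adjusted p = 0.37). Of the 8 list genes under the brightness filter, 1 was higher and 1 lower when all probe sets were tested, a fit in which 2.49% of 13674 genes were higher and 3.53% lower. These were Stra6, a retinol transporter (log2 difference 1.96 ± 0.40, adjusted p = 0.0085), and Aldh1a2, an enzyme that makes RA (log2 difference -2.32 ± 0.45, adjusted p = 0.0064). Calls lost without 1 RA day 2 sample were those of Stra8 (adjusted p = 0.12 without medium, 0.087 without low), Crabp2 (adjusted p = 0.10 without medium, 0.16 without low), Dhrs3 (adjusted p = 0.18 without medium, 0.19 without low) and Cyp26a1 (adjusted p = 0.14 without medium, 0.063 without low). Calls lost without 1 day 5 sample were those of Crabp2 (adjusted p = 0.051 without high, 0.056 without medium) and Dhrs3 (adjusted p = 0.10 without high, 0.063 without medium, 0.054 without low).

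The upstream sequence of Cyp26a1 is shown because, among Stra8, Crabp1, Dhrs3, Cyp26a1 and Hoxa2, it alone held an RA response element of the kinds searched. It gives the 250 bases before the start in RefSeq (assembly GRCm38.p6, chr19:37697558-37697807, plus strand), 5′ to 3′, with the match in capitals.
Cyp26a1: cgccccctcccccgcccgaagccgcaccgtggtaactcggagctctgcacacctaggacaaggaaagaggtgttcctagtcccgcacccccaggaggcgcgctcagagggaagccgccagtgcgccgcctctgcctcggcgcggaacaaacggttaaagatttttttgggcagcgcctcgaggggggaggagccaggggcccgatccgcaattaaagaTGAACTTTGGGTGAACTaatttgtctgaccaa
The capitals mark a direct repeat of half-sites spaced by 5 bases (DR5), read on the reverse strand and lying at -32 to -16 from the start. The half-site searched, on both strands, was AGGTCA, with A or G allowed at the first base and G or T at the third, in pairs separated by 5 or by 2 bases. Of 32841 promoters of the same length, 0.0883% held a DR5 and 0.174% a DR2. Crabp2 and Hoxb6 were not among the sequences used.

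**Figure D2:**
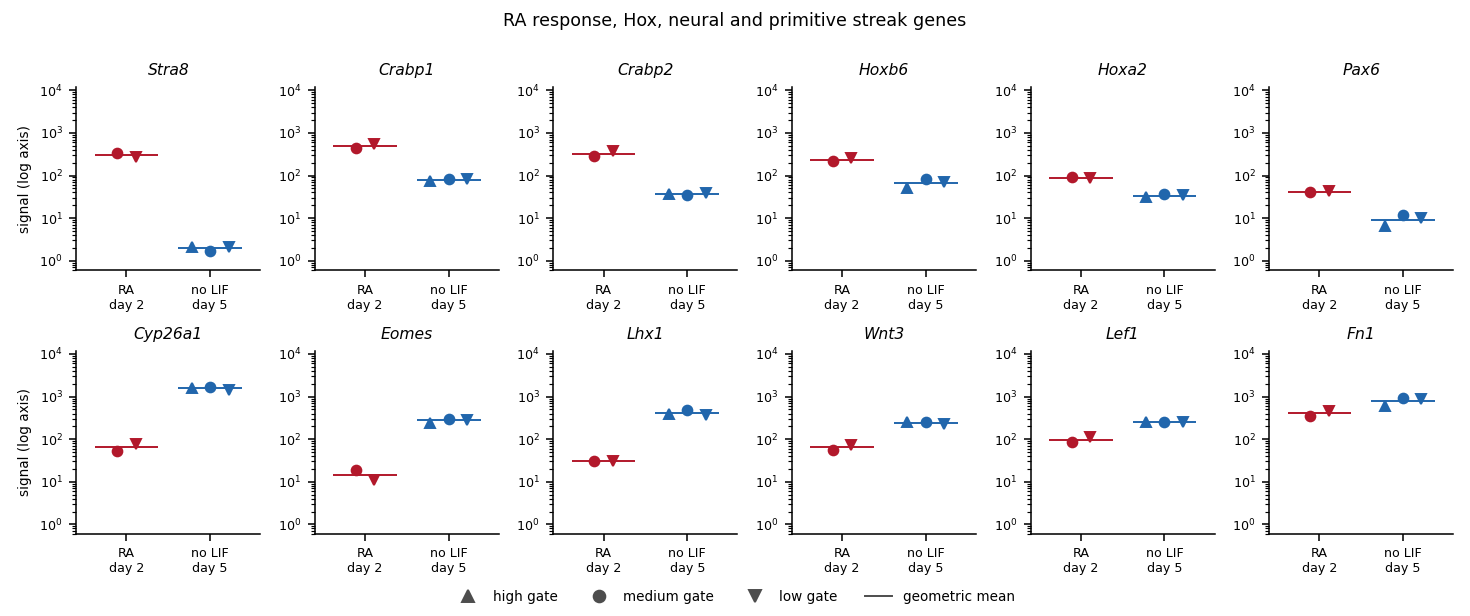
Signals (y axis, log scale) of 12 genes in the RA day 2 samples (red, left) and the day 5 samples (blue, right), 1 point per sample with the gate as its shape and a line at the geometric mean. Stra8, Crabp1, Crabp2, Hoxb6, Hoxa2 and Pax6 lie higher in RA day 2, and Cyp26a1, Eomes, Lhx1, Wnt3, Lef1 and Fn1 lie lower, with no overlap in any of the 12.

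Hox genes, the homeobox genes that set position along the body axis, were past the test for a few members, all higher in RA day 2. The list's median difference was 1.05, the highest of the 25 lists. But only 2 of the 12 measured members were past the test (16.7%, against 4.27% of all genes), both upward. Hoxb6 gave signals of 215 and 259 in RA day 2, against 51.7, 81.4 and 69.3 in day 5 (log2 difference 1.82 ± 0.44, adjusted p = 0.015). Hoxa2 was measured at 90.8 and 86.1 in RA day 2, against 31.6, 36.1 and 34.1 in day 5 (log2 difference 1.31 ± 0.31, adjusted p = 0.015). Each was at least 2 times as high in both RA day 2 samples as in any day 5 sample. Hoxb2 had signals of 1348 and 1195 in RA day 2, against 440.3, 343 and 452 in day 5 (log2 difference 1.80 ± 0.51, adjusted p = 0.057). Hoxb5 gave signals of 173 and 218 in RA day 2, against 52.2, 53.6 and 22.4 in day 5 (log2 difference 2.23 ± 0.68, adjusted p = 0.051). Hoxb1 was measured at 324 and 197 in RA day 2, against 118, 138 and 113 in day 5 (log2 difference 1.29 ± 0.94, adjusted p = 0.46). The 3 genes just named did not overlap between the arms but missed the test. Of all genes, 22.0% were higher in RA day 2 without overlap. Without the doubted day 1 library 6 of the 12 were past the test, with Hoxb2 at 1.69 on the log2 scale (adjusted p = 0.00019), Hoxb5 at 2.10 on the log2 scale (adjusted p = 0.0033), Hoxb7 at 0.98 on the log2 scale (adjusted p = 0.006) and Hoxb1 at 1.09 on the log2 scale (adjusted p = 0.024). Over all genes that refit gave 598 higher, against 420 with the library. Hoxa4 (log2 difference -0.05 ± 0.21, adjusted p = 0.92), Hoxb8 (log2 difference 0.05 ± 0.32, adjusted p = 0.95) and Hoxd8 (log2 difference -0.12 ± 0.21, adjusted p = 0.81) overlapped between the arms. Of 18 list members under the brightness filter, 5 were past the test in the fit of all probe sets, all higher. In that fit 2.49% of all genes were higher. Hoxa7 had signals of 48.0 and 62.3 in RA day 2, against 4.69, 5.50 and 6.81 in day 5 (log2 difference 2.55 ± 0.38, adjusted p = 0.00086). Meis1, a cofactor of Hox proteins, gave signals of 49.7 and 77.1 in RA day 2, against 4.24, 9.44 and 4.32 in day 5 (log2 difference 2.79 ± 0.57, adjusted p = 0.0086). Hoxb4 (log2 difference 1.57 ± 0.43, adjusted p = 0.047), Hoxa9 (log2 difference 1.45 ± 0.38, adjusted p = 0.035) and Hoxa5 (log2 difference 1.16 ± 0.31, adjusted p = 0.04) were the others. With only 1 RA day 2 sample kept, the test was missed by Hoxb6 (adjusted p = 0.082 without medium, 0.15 without low) and Hoxa2 (adjusted p = 0.098 without medium, 0.14 without low).

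Neural genes were in part higher in RA day 2 than in day 5. Of 23 measured genes of neural progenitors and neurons, 8 were higher in RA day 2 and 2 were lower, with a median of 0.34. These shares were 34.8% and 8.70%, against 4.27% and 5.11% of all genes. Irx3, a homeobox factor of the neural tube, was measured at 219 and 245 in RA day 2, against 23, 38.1 and 40.5 in day 5 (log2 difference 2.73 ± 0.47, adjusted p = 0.0017). Gbx2, a homeobox factor of the anterior hindbrain that ES cells also express, had signals of 694 and 489 in RA day 2, against 124, 154 and 137 in day 5 (log2 difference 2.11 ± 0.31, adjusted p = 0.00051). Sox3, a SoxB1 factor of neural progenitors, gave signals of 254 and 197 in RA day 2, against 49.9, 80.9 and 37.0 in day 5 (log2 difference 2.02 ± 0.36, adjusted p = 0.0019). All 3 had their lowest RA day 2 signal above the highest of day 5. Pax6, a factor of the neural tube and eye, was measured at 41.4 and 42.9 in RA day 2, against 6.52, 11.6 and 10.2 in day 5 (log2 difference 1.95 ± 0.57, adjusted p = 0.043). Sox1, an early neural plate factor, had signals of 48.6 and 50.8 in RA day 2, against 9.14, 19.8 and 25.6 in day 5 (log2 difference 1.38 ± 0.35, adjusted p = 0.021). En2, a midbrain and hindbrain factor, gave signals of 80.3 and 83.6 in RA day 2, against 21.1, 26.5 and 32.7 in day 5 (log2 difference 1.54 ± 0.21, adjusted p = 0.00023). The 3 were dim genes, below Irx3, Gbx2 and Sox3 in both RA day 2 samples. In LIF, Irx3 was at 22.1 to 38.2, Gbx2 at 178 to 348, Sox1 at 30.7 to 44.8 and En2 at 70.1 to 77.2. Ncam1, an adhesion molecule, rose by 1.06 ± 0.17 on the log2 scale (adjusted p = 0.0011) on 1 probe set and was at 0.22 on the log2 scale (adjusted p = 0.73) on its other one. Stmn2, a microtubule regulator of neurons, rose by 1.27 ± 0.24 on the log2 scale (adjusted p = 0.0028). The 2 genes that fell were Dll1, a Notch ligand (log2 difference -2.70 ± 0.52, adjusted p = 0.0036), and Egr2, a factor of hindbrain rhombomeres that is also an immediate early gene (log2 difference -0.96 ± 0.23, adjusted p = 0.016). Map2 and Mapt, microtubule proteins of neurons, had log2 differences of -0.61 ± 0.31 (adjusted p = 0.31) and 0.34 ± 0.67 (adjusted p = 0.83). The neuronal tubulin Tubb3 had a log2 difference of 0.17 ± 0.18 (adjusted p = 0.65), but was at 1.36 on the log2 scale (adjusted p = 0.0079), past the test, on another probe set. 2 of the 11 members under the brightness filter were higher in the fit of all probe sets, in which 2.49% of all genes were higher. Zic1, a neural plate factor, was measured at 75.6 and 150.2 in RA day 2, against 5.88, 2.41 and 2.95 in day 5 (log2 difference 3.85 ± 0.70, adjusted p = 0.0043), and Ptn, a neurite growth factor, was the other (log2 difference 1.34 ± 0.29, adjusted p = 0.013). The fit with 1 RA day 2 sample fewer missed Sox1 (adjusted p = 0.14 without medium, 0.14 without low), Pax6 (adjusted p = 0.24 without medium, 0.19 without low), Stmn2 (adjusted p = 0.089 without medium), Dll1 (adjusted p = 0.063 without medium) and Egr2 (adjusted p = 0.30 without medium). A fit with 1 day 5 sample fewer missed Pax6 (adjusted p = 0.12 without high, 0.056 without medium, 0.074 without low) and Egr2 (adjusted p = 0.067 without medium, 0.054 without low).

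Primitive streak and early mesoderm genes were lower in RA day 2 cells. Of 12 measured, 8 were past the test, all of them lower (66.7%, against 5.11% of all genes), and the median of -1.55 was the lowest of the 25 lists. Beside Eomes, Lhx1, a LIM homeobox factor of streak and node, had signals of 31.2 and 30.0 in RA day 2, against 394, 479 and 361 in day 5 (log2 difference -3.55 ± 0.43, adjusted p = 8.4e-05). Tbx6, a T-box factor of paraxial mesoderm, gave signals of 48.6 and 54.9 in RA day 2, against 192, 197 and 140 in day 5 (log2 difference -1.67 ± 0.20, adjusted p = 6.6e-05). Wnt3, the ligand required to form the streak, was measured at 56.2 and 74.5 in RA day 2, against 247, 252 and 226 in day 5 (log2 difference -1.74 ± 0.43, adjusted p = 0.017). Each was high in all 3 gates of day 5. Bmp4, a ligand that patterns mesoderm, had signals of 81.9 and 199.9 in RA day 2, against 436, 435 and 505 in day 5 (log2 difference -1.89 ± 0.40, adjusted p = 0.0067). Pdgfra, a receptor of mesoderm and of primitive endoderm, gave signals of 51.4 and 96.3 in RA day 2, against 276, 527 and 413 in day 5 (log2 difference -2.69 ± 0.44, adjusted p = 0.001, but -0.03 on the log2 scale (adjusted p = 0.98) on its other probe set). Hand1, a factor of lateral mesoderm and trophoblast, was measured at 33.7 and 123 in RA day 2, against 113, 195 and 252 in day 5 (log2 difference -1.42 ± 0.41, adjusted p = 0.041). Bmp4, Pdgfra and Hand1 were each higher in the low than in the medium gate of RA day 2, and Hand1 overlapped between the arms. Wnt3a fell by 1.13 ± 0.31 on the log2 scale (adjusted p = 0.031). Foxa2, a factor of node and endoderm, had a log2 difference of 0.94 ± 0.81 (adjusted p = 0.55). The dim members moved the same way, 8 of 11 being past the test in the fit of all probe sets, all lower. In that fit 3.53% of all genes were lower. Gsc, the organizer gene goosecoid, had signals of 1.6 and 2.40 in RA day 2, against 113, 108 and 88.9 in day 5 (log2 difference -4.17 ± 0.17, adjusted p = 4.1e-09). Mesp1, the earliest marker of cardiac mesoderm, gave signals of 16.7 and 7.41 in RA day 2, against 143, 198 and 189 in day 5 (log2 difference -3.61 ± 0.22, adjusted p = 2.7e-07). Fgf8, a streak growth factor, was measured at 58.5 and 40 in RA day 2, against 508, 524 and 337 in day 5 (log2 difference -3.17 ± 0.40, adjusted p = 0.00022). These too showed no overlap, while 23.7% of all measured genes were lower in RA day 2 without overlap. Omission of 1 RA day 2 sample ended calls of Bmp4 (adjusted p = 0.20 without medium), Wnt3 (adjusted p = 0.18 without medium, 0.082 without low), Hand1 (adjusted p = 0.58 without medium) and Wnt3a (adjusted p = 0.44 without medium). Omission of 1 day 5 sample ended calls of Wnt3 (adjusted p = 0.075 without medium), Hand1 (adjusted p = 0.15 without medium, 0.14 without low) and Wnt3a (adjusted p = 0.093 without high, 0.11 without medium). In the medium and low gates alone, the test was missed by Wnt3a (adjusted p = 0.14).

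Among genes of trophoblast and simple epithelium, of 20 measured, 11 were past the test, all lower, with a median of -1.41. This share was 55.0%, against 5.11% of all genes. Eomes and Hand1 belong to both lists. Krt8 had signals of 488 and 747 in RA day 2, against 2535, 2201 and 2417 in day 5 (log2 difference -2.03 ± 0.47, adjusted p = 0.012). Krt18 gave signals of 295 and 587 in RA day 2, against 1104, 1225 and 1429 in day 5 (log2 difference -1.66 ± 0.40, adjusted p = 0.015). Krt19 was measured at 163 and 215 in RA day 2, against 1587, 1277 and 1214 in day 5 (log2 difference -2.86 ± 0.39, adjusted p = 0.00025). These 3 keratins of simple epithelia had 1 order in RA day 2, with the low gate above the medium gate. Cited1, a transcriptional coactivator of extraembryonic tissues, had signals of 65.0 and 115 in RA day 2, against 589.5, 634 and 514 in day 5 (log2 difference -2.69 ± 0.25, adjusted p = 8.5e-06). Anxa8, a membrane-binding annexin, gave signals of 8.83 and 17.6 in RA day 2, against 73.4, 94.4 and 86.3 in day 5 (log2 difference -2.44 ± 0.28, adjusted p = 4.8e-05). Perp, a desmosome protein and p53 target, was measured at 224 and 240.0 in RA day 2, against 864, 723 and 716 in day 5 (log2 difference -1.71 ± 0.40, adjusted p = 0.014). The tight junction genes Cldn4 and Cldn7 fell by 1.62 ± 0.31 on the log2 scale (adjusted p = 0.0033) and 1.4 ± 0.31 on the log2 scale (adjusted p = 0.0094). General epithelial genes did not pass the test: Cdh1, E-cadherin, had a log2 difference of -0.10 ± 0.22 (adjusted p = 0.85), and Epcam of -0.23 ± 0.14 (adjusted p = 0.36). Tfap2c, a factor of trophoblast and germ cells, had a log2 difference of -0.30 ± 0.36 (adjusted p = 0.69). None of the 6 members under the brightness filter was past the test in the fit of all probe sets. Among them were Cdx2 (log2 difference -0.62 ± 0.45, adjusted p = 0.54), Elf5 (log2 difference -0.66 ± 0.45, adjusted p = 0.51), Ascl2 (log2 difference -0.22 ± 0.72, adjusted p = 0.93) and Gata3 (log2 difference 0.33 ± 0.43, adjusted p = 0.79). The summed signal of the 20 genes was 3349 and 4438 in RA day 2, against 13575, 11794 and 11471 in day 5. Lost without 1 of the RA day 2 samples were Krt8 (adjusted p = 0.18 without medium), Krt18 (adjusted p = 0.29 without medium), Perp (adjusted p = 0.12 without medium, 0.11 without low), Cldn4 (adjusted p = 0.079 without medium) and Cldn7 (adjusted p = 0.10 without medium, 0.076 without low). Lost without 1 of the day 5 samples were Krt18 (adjusted p = 0.0502 without low).

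**Figure D3:**
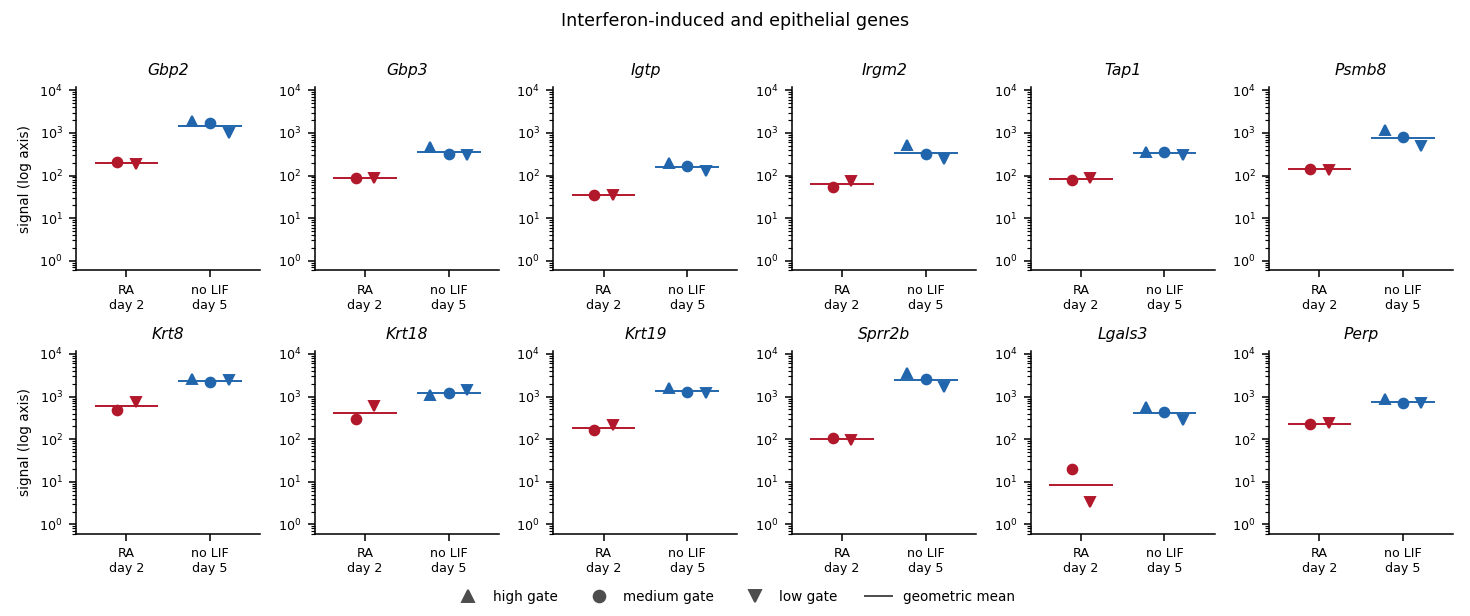
Signals (y axis, log scale) of 12 genes in the RA day 2 samples (red, left) and the day 5 samples (blue, right), 1 point per sample with the gate as its shape and a line at the geometric mean. All 12 genes lie lower in RA day 2 without overlap, and for the 6 genes of the upper row the high gate of day 5 lies above its low gate.

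Some interferon-induced genes, which are switched on in cells that receive an interferon signal, were lower in RA day 2. Of 20 measured GTPases and factors of the class, 5 (25%) were past the test, with a list median of -0.55. Of all genes, 5.11% were lower, as were each of the 5. These were guanylate binding proteins or immunity-related GTPases. Gbp2b had signals of 125 and 79.5 in RA day 2, against 779, 569.7 and 450.3 in day 5 (log2 difference -2.45 ± 0.35, adjusted p = 0.00037). Gbp3 gave signals of 85.6 and 85.8 in RA day 2, against 456, 323 and 308 in day 5 (log2 difference -2.03 ± 0.34, adjusted p = 0.0014). Igtp was measured at 35.0 and 34.0 in RA day 2, against 200.2, 169 and 126 in day 5 (log2 difference -2.01 ± 0.18, adjusted p = 4.4e-06). In each of these the 3 day 5 samples followed the order of the reporter, with the high gate highest. Irgm2 had signals of 54.7 and 75.4 in RA day 2, against 520.3, 321 and 249 in day 5 (log2 difference -2.23 ± 0.27, adjusted p = 8.4e-05). The sequences of these families are similar, so probe sets of 1 member may hold signal from others. The factors themselves were not past the test: Irf1 had a log2 difference of -0.97 ± 0.32 (adjusted p = 0.068), Irf7 of -0.90 ± 0.44 (adjusted p = 0.23), Irf9 of -0.24 ± 0.25 (adjusted p = 0.63) and Stat2 of 0.14 ± 0.27 (adjusted p = 0.84). No interferon receptor or JAK gene passed it, among Ifngr1 (log2 difference 0.18 ± 0.49, adjusted p = 0.87), Ifngr2 (log2 difference 0.06 ± 0.14, adjusted p = 0.86), Ifnar1 (log2 difference -0.21 ± 0.24, adjusted p = 0.68), Jak1 (log2 difference -0.36 ± 0.17, adjusted p = 0.20) and Jak2 (log2 difference -0.21 ± 0.29, adjusted p = 0.75). Without the doubted day 1 library 8 of the 20 were lower, adding Bst2 (-0.73 on the log2 scale (adjusted p = 0.031)), Irf1 (-1.0 on the log2 scale (adjusted p = 0.031)) and Ifitm3 (-0.62 on the log2 scale (adjusted p = 0.04)). Over all genes that refit gave 676 lower, against 502 with the library. Of 12 members under the brightness filter, 5 were past the test in the fit of all probe sets, each of them lower. In that fit 3.53% of all genes were lower. Isg15, a ubiquitin-like protein, gave signals of 65.1 and 59.9 in RA day 2, against 265, 199.6 and 158 in day 5 (log2 difference -1.57 ± 0.26, adjusted p = 0.002). Irgm1 was measured at 20.8 and 20.2 in RA day 2, against 61.4, 80.4 and 90.3 in day 5 (log2 difference -1.72 ± 0.30, adjusted p = 0.0034). Isg20 (log2 difference -3.19 ± 0.18, adjusted p = 1.5e-07), Ifit1 (log2 difference -1.24 ± 0.32, adjusted p = 0.031) and Ifit2 (log2 difference -0.81 ± 0.21, adjusted p = 0.031) were the other 3.

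Genes of the machinery that loads peptides onto MHC class I were lower in part. Of 10 measured genes, 5 were past the test, all lower (50%, against 5.11% of all genes), with a median of -1.13. Tap1, a subunit of the peptide transporter, had signals of 76.7 and 85.6 in RA day 2, against 365, 360.3 and 302 in day 5 (log2 difference -2.02 ± 0.24, adjusted p = 6.6e-05). Psmb8 gave signals of 146 and 134 in RA day 2, against 1148, 816 and 489 in day 5 (log2 difference -2.24 ± 0.48, adjusted p = 0.0072). Psmb9 was measured at 46.1 and 31.4 in RA day 2, against 196, 146 and 99.2 in day 5 (log2 difference -1.77 ± 0.48, adjusted p = 0.03). Psmb8, Psmb9 and Psmb10 are the catalytic subunits of the immunoproteasome, and none overlapped between the arms. Of all genes, 23.7% were lower in RA day 2 without overlap. Psmb10 had signals of 375 and 412 in RA day 2, against 1466, 992 and 677 in day 5 (log2 difference -1.28 ± 0.26, adjusted p = 0.0052). Psme1, a subunit of the proteasome activator, gave signals of 491 and 449 in RA day 2, against 1269, 892 and 796 in day 5 (log2 difference -1.01 ± 0.21, adjusted p = 0.0064). The class I light chain B2m had a log2 difference of -1.24 ± 0.39 (adjusted p = 0.059), and of -1.32 on the log2 scale (adjusted p = 0.0011) without the doubted day 1 library. The heavy chains H2-K1 (log2 difference 0.52 ± 0.38, adjusted p = 0.46) and H2-D1 (log2 difference 0.46 ± 0.42, adjusted p = 0.57) were not past the test. Tap2, the partner of Tap1 and under the brightness filter, was lower in the fit of all probe sets (log2 difference -2.41 ± 0.49, adjusted p = 0.0093). Leaving out 1 RA day 2 sample ended the calls of Psmb8 (adjusted p = 0.091 without medium, 0.06 without low), Psmb9 (adjusted p = 0.14 without medium, 0.19 without low), Psmb10 (adjusted p = 0.13 without medium) and Psme1 (adjusted p = 0.071 without medium, 0.066 without low). Leaving out 1 day 5 sample did so for Psmb9 (adjusted p = 0.088 without high, 0.075 without medium).

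The upstream sequences of 5 of these genes are shown because they hold the letters by which interferon signals are read. Each is the 250 bases before the RefSeq start (assembly GRCm38.p6, all on the plus strand), 5′ to 3′. They lie at chr3:142620413-142620662 for Gbp2, chr3:142594597-142594846 for Gbp2b, chr11:58199306-58199555 for Igtp, chr11:58214727-58214976 for Irgm2 and chr17:34197945-34198194 for Psmb8.
Gbp2: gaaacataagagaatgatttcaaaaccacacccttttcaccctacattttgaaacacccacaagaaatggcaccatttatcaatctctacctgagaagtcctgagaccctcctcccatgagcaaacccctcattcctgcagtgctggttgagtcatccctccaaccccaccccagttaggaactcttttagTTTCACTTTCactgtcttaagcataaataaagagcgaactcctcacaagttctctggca
Gbp2b: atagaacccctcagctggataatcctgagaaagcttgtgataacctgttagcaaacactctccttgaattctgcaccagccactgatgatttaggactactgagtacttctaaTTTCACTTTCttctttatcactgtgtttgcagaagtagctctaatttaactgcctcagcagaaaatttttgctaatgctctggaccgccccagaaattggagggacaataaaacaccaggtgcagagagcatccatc
Igtp: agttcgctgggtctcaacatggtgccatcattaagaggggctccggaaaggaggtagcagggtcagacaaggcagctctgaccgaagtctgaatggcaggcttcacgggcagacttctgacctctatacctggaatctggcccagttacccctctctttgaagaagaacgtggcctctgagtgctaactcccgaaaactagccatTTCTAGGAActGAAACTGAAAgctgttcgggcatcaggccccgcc
Irgm2: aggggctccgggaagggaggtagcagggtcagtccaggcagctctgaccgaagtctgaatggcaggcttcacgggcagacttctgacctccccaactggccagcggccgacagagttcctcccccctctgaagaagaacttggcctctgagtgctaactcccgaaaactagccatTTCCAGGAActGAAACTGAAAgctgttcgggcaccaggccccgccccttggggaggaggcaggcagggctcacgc
Psmb8: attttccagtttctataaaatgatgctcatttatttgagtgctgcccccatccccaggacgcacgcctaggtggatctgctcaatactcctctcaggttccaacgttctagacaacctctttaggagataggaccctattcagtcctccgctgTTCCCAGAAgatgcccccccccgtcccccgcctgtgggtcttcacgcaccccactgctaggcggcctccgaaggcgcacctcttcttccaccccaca
The capitals mark matches, on either strand, to GAAANNGAAA, the core of the interferon-stimulated response element (ISRE), and to TTCNNNGAA, the gamma-activated sequence (GAS). Gbp2 and Gbp2b hold the ISRE core alone, Igtp and Irgm2 hold a GAS followed after 2 bases by an ISRE core, and Psmb8 holds a GAS alone. The core occurred upstream of all 5 GTPase genes that were lower, Gbp3 included, and of 2.98% of 32841 promoters of this length. A GAS occurred in 7.02% of them. Neither was found in the window of Tap1, Psmb9, Psmb10 or Psme1. A match is a description of the letters and no measured site.

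Of 24 measured markers of extraembryonic endoderm, 6 were higher in RA day 2 and 1, Pdgfra, was lower, with a median of 0.12. These shares were 25% and 4.17%, against 4.27% and 5.11% of all genes. Cubn was measured at 223 and 603 in RA day 2, against 18.6, 26.8 and 26.2 in day 5 (log2 difference 3.44 ± 0.53, adjusted p = 0.00072, but -0.09 on the log2 scale (adjusted p = 0.91) on its other probe set). Lrp2 had signals of 329 and 385 in RA day 2, against 71.4, 70.4 and 98.4 in day 5 (log2 difference 2.07 ± 0.34, adjusted p = 0.0011). Amn gave signals of 285 and 424 in RA day 2, against 68.2, 85.1 and 89.5 in day 5 (log2 difference 1.80 ± 0.27, adjusted p = 0.002). Dab2 was measured at 293 and 481 in RA day 2, against 83.9, 72.0 and 123 in day 5 (log2 difference 1.83 ± 0.54, adjusted p = 0.045, but 0.93 on the log2 scale (adjusted p = 0.14) and -0.10 on the log2 scale (adjusted p = 0.90) on its other probe sets). Cubilin, megalin (Lrp2) and amnionless form the endocytic receptor of visceral endoderm, Dab2 is its adaptor, and all 4 were higher in the low than in the medium gate of RA day 2. At day 3 without LIF, Cubn was at 27.7 to 383, Lrp2 at 155 to 327 and Amn at 186 to 411. In LIF, Cubn was at 20.7 to 27.2, Lrp2 at 35.1 to 41.3 and Amn at 186 to 259. Sox7, a factor of primitive and parietal endoderm, rose by 1.07 ± 0.25 on the log2 scale (adjusted p = 0.014), and the laminin chain Lamc1 by 0.67 ± 0.17 on the log2 scale (adjusted p = 0.017). Of 7 members under the brightness filter, Thbd, thrombomodulin, was lower in the fit of all probe sets (log2 difference -1.81 ± 0.39, adjusted p = 0.012). In that fit 3.53% of all genes were lower. The lineage factors Gata6 (log2 difference -0.14 ± 0.21, adjusted p = 0.77), Gata4 (log2 difference 0.08 ± 0.28, adjusted p = 0.91), Sox17 (log2 difference 0.27 ± 0.47, adjusted p = 0.81) and Hnf4a (log2 difference -0.24 ± 0.33, adjusted p = 0.76) overlapped between the arms, as did Afp (log2 difference -0.38 ± 0.38, adjusted p = 0.62). The low gate of RA day 2 also exceeded the medium gate for the basement membrane genes Col4a1, Col4a2 and Lama1. Signals were 365 and 765 in RA day 2, against 379.7, 404 and 546 in day 5 for Col4a1. They were 204 and 461 in RA day 2, against 252, 283 and 354 in day 5 for Col4a2, and 154 and 349 in RA day 2, against 96.2, 106 and 114 in day 5 for Lama1. Calls lost without 1 RA day 2 sample were those of Dab2 (adjusted p = 0.20 without medium, 0.23 without low), Sox7 (adjusted p = 0.12 without medium, 0.11 without low) and Lamc1 (adjusted p = 0.14 without medium, 0.12 without low). Calls lost without 1 day 5 sample were those of Dab2 (adjusted p = 0.068 without high, 0.14 without medium, 0.11 without low), Sox7 (adjusted p = 0.081 without medium) and Lamc1 (adjusted p = 0.07 without low). A fit of the medium and low gates alone missed Lamc1 (adjusted p = 0.091) and Amn (adjusted p = 0.10).

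Pluripotency genes did not move as a block. Pou5f1, whose reporter was used for sorting, followed the gates within both arms. Pou5f1 had signals of 602 and 284 in RA day 2, against 901, 663 and 527 in day 5 (log2 difference -0.66 ± 0.36, adjusted p = 0.29). Nanog gave signals of 1049 and 608 in RA day 2, against 481, 653 and 522 in day 5 (log2 difference 0.47 ± 0.32, adjusted p = 0.42). Zfp42 had a log2 difference of 0.43 ± 0.41 (adjusted p = 0.59) and Klf4 of -1.28 ± 0.43 (adjusted p = 0.073). Pou5f1 and Nanog overlapped between the arms, whereas Zfp42 and Klf4 did not. Without overlap, 22.0% of all genes were higher and 23.7% were lower in RA day 2. Of 31 measured genes of the network, 9 were higher in RA day 2 and 1 was lower, with a median of 0.40. These shares were 29.0% and 3.23%, against 4.27% and 5.11% of all genes. Sox2, a partner of Oct4 that is also a SoxB1 neural factor, was measured at 1744 and 1826 in RA day 2, against 476, 705 and 713 in day 5 (log2 difference 1.49 ± 0.18, adjusted p = 8.5e-05). Lefty1, a Nodal antagonist, had signals of 2320.0 and 1829 in RA day 2, against 430.1, 261 and 149 in day 5 (log2 difference 3.11 ± 0.56, adjusted p = 0.0021). Gdf3, a ligand related to Nodal, gave signals of 497 and 349 in RA day 2, against 159, 118 and 120.2 in day 5 (log2 difference 1.67 ± 0.19, adjusted p = 6e-05). Lefty1 and Gdf3 were higher in the medium than in the low gate of RA day 2. Dppa5a, an RNA-binding protein of pluripotent cells, was measured at 4334 and 3651 in RA day 2, against 1046, 885 and 1016 in day 5 (log2 difference 2.01 ± 0.17, adjusted p = 3.9e-06). Ooep, a member of the subcortical maternal complex of oocytes, had signals of 876 and 523 in RA day 2, against 82.5, 90.0 and 97.1 in day 5 (log2 difference 2.75 ± 0.33, adjusted p = 0.00025). Dnmt3l (log2 difference 1.30 ± 0.34, adjusted p = 0.037), Lin28a (log2 difference 1.03 ± 0.21, adjusted p = 0.012) and Utf1 (log2 difference 1.06 ± 0.31, adjusted p = 0.045) rose by less. Klf5 was the gene that fell (log2 difference -0.95 ± 0.24, adjusted p = 0.019). Without the doubted day 1 library, 10 were higher and 3 were lower, with Klf4 at -1.21 on the log2 scale (adjusted p = 0.014) and Tdgf1 at -1.01 on the log2 scale (adjusted p = 0.0024) now past the test. Over all genes that refit gave 598 higher and 676 lower, against 420 and 502 with the library. With only 1 RA day 2 sample kept, the test was missed by Dnmt3l (adjusted p = 0.28 without medium, 0.14 without low), Lin28a (adjusted p = 0.15 without medium, 0.061 without low), Utf1 (adjusted p = 0.37 without medium, 0.10 without low) and Klf5 (adjusted p = 0.24 without medium, 0.06 without low). With 1 day 5 sample left out it was missed by Dnmt3l (adjusted p = 0.057 without high, 0.12 without medium, 0.13 without low), Utf1 (adjusted p = 0.065 without high, 0.13 without medium, 0.12 without low) and Klf5 (adjusted p = 0.06 without high). The medium and low gates alone gave no call for Dnmt3l (adjusted p = 0.12), Lin28a (adjusted p = 0.16) and Ooep (adjusted p = 0.10).

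The 17 measured genes of the postimplantation epiblast had a median of 0.41, with 4 higher and 1 lower. These shares were 23.5% and 5.88%, against 4.27% and 5.11% of all genes, so the share lower was near that of all genes. Fgf15, a growth factor of epiblast and neural tube, gave signals of 195 and 219.6 in RA day 2, against 10.5, 22.2 and 47.8 in day 5 (log2 difference 2.95 ± 0.41, adjusted p = 0.00027). Wnt8a, a Wnt of epiblast and hindbrain, was measured at 207 and 110.1 in RA day 2, against 45.0, 25.4 and 7.2 in day 5 (log2 difference 2.86 ± 0.76, adjusted p = 0.025). Sall2, a zinc finger factor, had signals of 158 and 175 in RA day 2, against 47.0, 41.4 and 36.4 in day 5 (log2 difference 1.81 ± 0.40, adjusted p = 0.017). In day 5 both Fgf15 and Wnt8a followed the gates, in opposite directions. Sfrp2, a secreted Wnt inhibitor, rose by 1.14 ± 0.21 on the log2 scale (adjusted p = 0.0024). The gene that fell was Lef1, a transcription factor that works with beta-catenin. Lef1 gave signals of 85.4 and 110.2 in RA day 2, against 247, 257 and 257 in day 5 (log2 difference -1.34 ± 0.32, adjusted p = 0.014). Nodal had a log2 difference of 0.06 ± 0.18 (adjusted p = 0.89), Dnmt3b of 0.54 ± 0.43 (adjusted p = 0.55) and Pou3f1 of 0.88 ± 0.34 (adjusted p = 0.13). The fit with 1 RA day 2 sample fewer missed Wnt8a (adjusted p = 0.26 without medium, 0.086 without low), Sall2 (adjusted p = 0.14 without medium, 0.13 without low) and Lef1 (adjusted p = 0.18 without medium, 0.057 without low). A fit with 1 day 5 sample fewer missed Wnt8a (adjusted p = 0.12 without low), Sall2 (adjusted p = 0.056 without medium, 0.076 without low) and Lef1 (adjusted p = 0.051 without medium). In the medium and low gates alone, the test was missed by Sall2 (adjusted p = 0.10).

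In the Wnt pathway 3 of 25 measured genes were higher and 5 were lower (12% and 20%, against 4.27% and 5.11% of all genes), with a median of 0.076. The 5 that fell were 4 ligands and Lef1. Wnt6 was measured at 21.0 and 44.1 in RA day 2, against 406, 312 and 354 in day 5 (log2 difference -3.49 ± 0.41, adjusted p = 6.6e-05). Wnt5b had signals of 27.3 and 34.4 in RA day 2, against 153, 101 and 101 in day 5 (log2 difference -1.76 ± 0.31, adjusted p = 0.002). Wnt6 was dim elsewhere too, with signals of 10.4 to 25.9 at day 3 without LIF and 6.96 to 14.7 in LIF. The feedback target Axin2 had a log2 difference of -0.06 ± 0.29 (adjusted p = 0.94) on its chip A probe set. Its chip B probe set was at -1.95 on the log2 scale (adjusted p = 0.0012), past the test, and there lot and arm cannot be told apart. Of 9 members under the brightness filter, 3 were past the test in the fit of all probe sets, all lower. These were the Wnt agonist Rspo3 (log2 difference -3.66 ± 0.24, adjusted p = 3.3e-06), the ligand Wnt5a (log2 difference -2.53 ± 0.24, adjusted p = 2.3e-05) and the antagonist Dkk1 (log2 difference -2.06 ± 0.46, adjusted p = 0.016). Of all genes in that fit, 3.53% were lower. Fzd3, a Wnt receptor, rose by 0.92 ± 0.19 on the log2 scale (adjusted p = 0.0064) and was at 0.35 on the log2 scale (adjusted p = 0.51) on its other probe set. In the Nodal, BMP and activin pathway 2 of 27 were higher (Lefty1 and Gdf3) and 2 were lower (Bmp4 and Smad1, a transducer of BMP signals, log2 difference -1.26 ± 0.18, adjusted p = 0.00031), with a median of -0.18. These shares, 7.41% each way, were near those of all genes. Of 7 dim members, 2 were lower in the fit of all probe sets, Tgfb1 (log2 difference -3.47 ± 0.20, adjusted p = 1.3e-07) and the antagonist Cer1 (log2 difference -1.54 ± 0.34, adjusted p = 0.013). The BMP target Id1 had a log2 difference of -0.85 ± 0.29 (adjusted p = 0.082) and, without the doubted day 1 library, of -0.90 on the log2 scale (adjusted p = 0.0024). In the FGF and ERK list 1 of 18 was higher (Fgf15) and 4 were lower (5.56% and 22.2%, against 4.27% and 5.11% of all genes). The median was -0.14, and Fgf8 was lower among 4 dim members. Dusp4, an ERK phosphatase, gave signals of 321 and 348 in RA day 2, against 1599, 1475 and 1004 in day 5 (log2 difference -2.03 ± 0.27, adjusted p = 0.0006, and -1.45 on the log2 scale (adjusted p = 0.13) on its other probe set). Erbb3, a neuregulin receptor, fell by 1.16 ± 0.35 on the log2 scale (adjusted p = 0.047). Spry2, Spry4 and Dusp6, feedback inhibitors of ERK, had log2 differences of 0.05 ± 0.22 (adjusted p = 0.94), -0.22 ± 0.23 (adjusted p = 0.65) and 0.50 ± 0.41 (adjusted p = 0.52). Omission of 1 RA day 2 sample ended calls of Wnt5b (adjusted p = 0.051 without medium), Fzd3 (adjusted p = 0.064 without medium, 0.072 without low) and Erbb3 (adjusted p = 0.12 without medium, 0.34 without low). Omission of 1 day 5 sample ended calls of Erbb3 (adjusted p = 0.095 without high, 0.14 without medium, 0.08 without low). A fit of the medium and low gates alone missed Dusp4 (adjusted p = 0.12).

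Genes tied to LIF and STAT3 split in the same way, with 3 of 23 measured higher and 7 lower and a median of -0.36. These shares were 13.0% and 30.4%, against 4.27% and 5.11% of all genes. Pim1, a kinase, was measured at 2005 and 1879.9 in RA day 2, against 567, 614 and 679 in day 5 (log2 difference 1.65 ± 0.27, adjusted p = 0.0011). Gab1, a docking protein, had signals of 950.3 and 744 in RA day 2, against 342, 286 and 288 in day 5 (log2 difference 1.43 ± 0.19, adjusted p = 0.00023, but 0.77 on the log2 scale (adjusted p = 0.17) on its other probe set). Fos, an immediate early gene, gave signals of 478 and 466 in RA day 2, against 2431, 2735 and 2064 in day 5 (log2 difference -2.49 ± 0.50, adjusted p = 0.005). Socs3, the feedback inhibitor of the LIF receptor, was measured at 96.3 and 121 in RA day 2, against 158, 148 and 222 in day 5 (log2 difference -0.78 ± 0.18, adjusted p = 0.011, but 0.13 on the log2 scale (adjusted p = 0.92) on its other probe set). Stat3 itself fell by 0.67 ± 0.17 on the log2 scale (adjusted p = 0.022). Gbx2 was the third gene higher, and Bcl3 (log2 difference -1.67 ± 0.42, adjusted p = 0.018, but 0.03 on the log2 scale (adjusted p = 0.97) on its other probe set), Junb (log2 difference -1.12 ± 0.25, adjusted p = 0.0088), Klf5 and Icam1 (log2 difference -0.86 ± 0.23, adjusted p = 0.026) were the other genes lower. Fos and Junb also belong to the list of dissociation and sorting stress, the genes that enzymatic dissociation itself induces. In that list 1 of 21 measured genes was higher and 8 were lower, with a median of -0.45. These shares were 4.76% and 38.1%, against 4.27% and 5.11% of all genes. Zfp36, a protein that destabilises messages, had signals of 65.4 and 62.9 in RA day 2, against 229, 162 and 170.1 in day 5 (log2 difference -1.44 ± 0.23, adjusted p = 0.00081). Nr4a1, a nuclear receptor, gave signals of 79.3 and 87.8 in RA day 2, against 167, 209 and 135 in day 5 (log2 difference -0.98 ± 0.16, adjusted p = 0.0012, but 0.37 on the log2 scale (adjusted p = 0.25) on its other probe set). Fosb, Btg2, Egr1 and Egr2 fell by 1.43 ± 0.33 on the log2 scale (adjusted p = 0.011), 0.98 ± 0.25 on the log2 scale (adjusted p = 0.02), 0.96 ± 0.23 on the log2 scale (adjusted p = 0.015) and 0.96 ± 0.23 on the log2 scale (adjusted p = 0.016). The summed signal of the 21 genes was 12921 and 11375 in RA day 2, against 14374, 14208 and 14659 in day 5. These genes moved with the arms, and their part in the other differences was not tested. Lost without 1 of the RA day 2 samples were Fos (adjusted p = 0.058 without medium, 0.059 without low), Socs3 (adjusted p = 0.16 without medium, 0.052 without low), Stat3 (adjusted p = 0.26 without medium, 0.065 without low), Bcl3 (adjusted p = 0.34 without low), Junb (adjusted p = 0.16 without medium), Icam1 (adjusted p = 0.073 without medium, 0.26 without low), Fosb (adjusted p = 0.14 without medium, 0.065 without low), Btg2 (adjusted p = 0.12 without medium, 0.16 without low), Egr1 (adjusted p = 0.20 without medium, 0.057 without low) and Nr4a1 (adjusted p = 0.051 without medium). Lost without 1 of the day 5 samples were Socs3 (adjusted p = 0.06 without low), Stat3 (adjusted p = 0.11 without medium, 0.055 without low), Bcl3 (adjusted p = 0.059 without high), Icam1 (adjusted p = 0.075 without high, 0.068 without low), Btg2 (adjusted p = 0.064 without high) and Egr1 (adjusted p = 0.061 without medium). The medium and low gates alone gave no call for Socs3 (adjusted p = 0.067), Stat3 (adjusted p = 0.075), Bcl3 (adjusted p = 0.056), Icam1 (adjusted p = 0.071), Egr1 (adjusted p = 0.054) and Nr4a1 (adjusted p = 0.063).

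Growth and imprinted genes held some of the largest differences. Of 19 measured, 4 were higher and 2 were lower (21.1% and 10.5%, against 4.27% and 5.11% of all genes), with a median of 0.086. Beside Mest, Plagl1, a zinc finger factor of an imprinted network, was measured at 534 and 586 in RA day 2, against 50.4, 37.2 and 47.6 in day 5 (log2 difference 3.6 ± 0.77, adjusted p = 0.014). Igfbp2, a binding protein for insulin-like growth factors, had signals of 3589 and 4187 in RA day 2, against 457, 526 and 739 in day 5 (log2 difference 2.76 ± 0.24, adjusted p = 4.4e-06). Ndn, necdin, rose by 1.05 ± 0.31 on the log2 scale (adjusted p = 0.045) and was at 0.58 on the log2 scale (adjusted p = 0.41) on another probe set. Igfbp2 and Igfbp3, paralogs, thus differed in opposite directions. Phlda2, a maternally expressed growth repressor of the placenta, gave signals of 729 and 587 in RA day 2, against 1427, 1641 and 2308 in day 5 (log2 difference -1.41 ± 0.28, adjusted p = 0.0044). Igf2 (log2 difference -0.33 ± 0.56, adjusted p = 0.80), Peg3 (log2 difference -0.19 ± 0.26, adjusted p = 0.75), Meg3 (log2 difference 0.24 ± 0.53, adjusted p = 0.85) and Cdkn1c (log2 difference 0.19 ± 0.23, adjusted p = 0.69) overlapped between the arms. Leaving out 1 RA day 2 sample ended the calls of Plagl1 (adjusted p = 0.11 without medium, 0.14 without low), Ndn (adjusted p = 0.26 without medium, 0.19 without low) and Phlda2 (adjusted p = 0.076 without low). Leaving out 1 day 5 sample did so for Plagl1 (adjusted p = 0.061 without medium) and Ndn (adjusted p = 0.11 without high, 0.12 without medium, 0.067 without low). In the medium and low gates alone, the test was missed by Plagl1 (adjusted p = 0.10), which is read on chip B, where lot and arm cannot be told apart.

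Genes of cholesterol synthesis and uptake had a median of 0.81, with 5 of 14 measured past the test, all higher (35.7%, against 4.27% of all genes). Sqle, squalene epoxidase, was measured at 1035 and 1149 in RA day 2, against 474, 565 and 577 in day 5 (log2 difference 0.93 ± 0.21, adjusted p = 0.01). Lss, lanosterol synthase, had signals of 341 and 285 in RA day 2, against 127, 135 and 114 in day 5 (log2 difference 1.33 ± 0.27, adjusted p = 0.0055, and 0.46 on the log2 scale (adjusted p = 0.43) on its other probe set). Dhcr7 and Idi1 rose by 1.20 ± 0.28 on the log2 scale (adjusted p = 0.012) and 0.79 ± 0.23 on the log2 scale (adjusted p = 0.041), with Idi1 at 0.49 on the log2 scale (adjusted p = 0.34) on its chip B probe set. Fdps, farnesyl diphosphate synthase, rose by 1.07 ± 0.22 on the log2 scale (adjusted p = 0.0049) on 1 probe set, was at 1.04 on the log2 scale (adjusted p = 0.005) on another and at -0.31 on the log2 scale (adjusted p = 0.65) on the third. Hmgcs1, the synthase at the head of the pathway, had a log2 difference of 0.65 ± 0.31 (adjusted p = 0.23). Without the doubted day 1 library 8 of the 14 were higher, in a refit that called 598 of all genes higher, against 420 with the library. Of 20 genes of glycolysis and glucose uptake, Hk2, hexokinase 2, was higher (log2 difference 1.02 ± 0.12, adjusted p = 8.4e-05) and Ldhb, a lactate dehydrogenase subunit, was lower (log2 difference -1.09 ± 0.28, adjusted p = 0.022), and the median was 0.014. These shares, 5% each way, were near those of all genes (4.27% and 5.11%). Calls lost without 1 RA day 2 sample were those of Sqle (adjusted p = 0.11 without medium, 0.081 without low), Lss (adjusted p = 0.076 without medium, 0.051 without low), Dhcr7 (adjusted p = 0.063 without medium, 0.14 without low), Idi1 (adjusted p = 0.18 without medium, 0.24 without low), Fdps (adjusted p = 0.11 without medium) and Ldhb (adjusted p = 0.22 without medium, 0.095 without low). Calls lost without 1 day 5 sample were those of Idi1 (adjusted p = 0.10 without high, 0.087 without medium, 0.084 without low) and Ldhb (adjusted p = 0.067 without high). A fit of the medium and low gates alone missed Idi1 (adjusted p = 0.059) and Fdps (adjusted p = 0.052).

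Guidance ligands and receptors gave 3 higher and 4 lower calls among 18 measured (16.7% and 22.2%, against 4.27% and 5.11% of all genes), with a median of 0.020. Semaphorins were among the genes that rose, Sema3e by 1.68 ± 0.41 on the log2 scale (adjusted p = 0.015) and Sema4d by 1.12 ± 0.21 on the log2 scale (adjusted p = 0.0027), with the receptor Epha2. Beside Slit3, the netrin receptor Unc5b (log2 difference -1.14 ± 0.18, adjusted p = 0.0022), the semaphorin receptor Nrp2 (log2 difference -1.43 ± 0.24, adjusted p = 0.0029) and the ephrin receptor Ephb3 (log2 difference -1.51 ± 0.25, adjusted p = 0.0014) fell. Slit3, Unc5b and Nrp2 are read on chip B, where lot and arm cannot be told apart. Of 11 members under the brightness filter, 2 were past the test in the fit of all probe sets, both lower, the ephrin Efna1 (log2 difference -1.79 ± 0.26, adjusted p = 0.0007) and the plexin Plxna2. In that fit 3.53% of all genes were lower. Plxna2 gave signals of 5.50 and 11.8 in RA day 2, against 158, 172 and 152 in day 5 (log2 difference -3.70 ± 0.34, adjusted p = 1.7e-05). With only 1 RA day 2 sample kept, the test was missed by Sema3e (adjusted p = 0.15 without medium, 0.094 without low), Sema4d (adjusted p = 0.069 without medium), Unc5b (adjusted p = 0.067 without medium), Nrp2 (adjusted p = 0.082 without medium) and Ephb3 (adjusted p = 0.062 without medium). With 1 day 5 sample left out it was missed by Sema3e (adjusted p = 0.0503 without high). The medium and low gates alone gave no call for Unc5b (adjusted p = 0.17) and Nrp2 (adjusted p = 0.10).

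Proliferation genes moved little. Of 25 measured, 1 was past the test, upward (4%, near the 4.27% of all genes), with a median of 0.032. That gene was Cdc6, a replication licensing factor (log2 difference 0.65 ± 0.18, adjusted p = 0.031), while Mki67 had a log2 difference of -0.32 ± 0.17 (adjusted p = 0.27), Pcna of -0.10 ± 0.15 (adjusted p = 0.77) and Ccna2 of 0.03 ± 0.14 (adjusted p = 0.93). Of 13 D cyclins and CDK inhibitors 0 were called by limma, with 3 at an unadjusted p under 0.05, and Cdkn1a had a log2 difference of -0.37 ± 0.26 (adjusted p = 0.43). Among 18 Polycomb and DNA methylation genes only Dnmt3l was called, a share of 5.56%, near the 4.27% of all genes that were higher. Of 13 p53 targets, Gadd45a rose (log2 difference 1.20 ± 0.35, adjusted p = 0.04) and 4 fell, namely Perp, Btg2, Phlda3 (log2 difference -0.67 ± 0.20, adjusted p = 0.044) and Trp53inp1 (log2 difference -1.24 ± 0.29, adjusted p = 0.022, and -0.47 on the log2 scale (adjusted p = 0.50) on its other probe set), with a median of -0.44. These shares were 7.69% and 30.8%, against 4.27% and 5.11% of all genes. The fit with 1 RA day 2 sample fewer missed Cdc6 (adjusted p = 0.25 without medium, 0.13 without low), Gadd45a (adjusted p = 0.45 without medium), Phlda3 (adjusted p = 0.38 without medium, 0.086 without low) and Trp53inp1 (adjusted p = 0.11 without medium, 0.21 without low). A fit with 1 day 5 sample fewer missed Cdc6 (adjusted p = 0.054 without high, 0.098 without medium, 0.086 without low), Gadd45a (adjusted p = 0.095 without high, 0.093 without medium, 0.085 without low), Phlda3 (adjusted p = 0.075 without high, 0.11 without medium, 0.11 without low) and Trp53inp1 (adjusted p = 0.053 without high, 0.093 without medium). In the medium and low gates alone, the test was missed by Cdc6 (adjusted p = 0.074), Phlda3 (adjusted p = 0.075) and Trp53inp1 (adjusted p = 0.13).

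Markers of other cells that the cultures could hold were measured beside these results. Of 22 fibroblast and mesenchyme genes 3 were higher and 3 lower (13.6% each way, against 4.27% and 5.11% of all genes), with a median of -0.033. Ccn2, a matricellular protein, was measured at 349 and 276 in RA day 2, against 37.9, 48.0 and 44.7 in day 5 (log2 difference 2.75 ± 0.45, adjusted p = 0.0012). S100a6, a calcium-binding protein, had signals of 369 and 467 in RA day 2, against 3549.6, 3317 and 2861 in day 5 (log2 difference -3.08 ± 0.25, adjusted p = 1.9e-06). The smooth muscle genes Cnn1 and Myl9 rose by 2.87 ± 0.54 on the log2 scale (adjusted p = 0.003) and 1.4 ± 0.29 on the log2 scale (adjusted p = 0.006), and Col5a1 and Fn1, matrix genes, fell by 1.29 ± 0.17 on the log2 scale (adjusted p = 0.00016) and 1.02 ± 0.19 on the log2 scale (adjusted p = 0.0033). The main fibroblast collagens did not separate the arms, Col1a1 having a log2 difference of -0.15 ± 0.26 (adjusted p = 0.80) and Col1a2 of -0.25 ± 0.17 (adjusted p = 0.40). The list's summed signal was 5707 and 7871 in RA day 2, against 9046, 9089 and 8945 in day 5. Of 7 blood and endothelium genes Lmo2 was lower (log2 difference -1.01 ± 0.29, adjusted p = 0.041), a share of 14.3%, against 5.11% of all genes. The summed signal of the 7 was 507 and 678 in RA day 2, against 495, 501 and 609 in day 5. Of 9 members under the brightness filter, 3 were past the test in the fit of all probe sets, all lower. They were Cdh5 (log2 difference -1.40 ± 0.36, adjusted p = 0.031), Kdr (log2 difference -1.42 ± 0.38, adjusted p = 0.041) and Runx1 (log2 difference -1.27 ± 0.33, adjusted p = 0.033). Of all genes in that fit, 3.53% were lower. In such bulk samples fewer cells of a type and less RNA per cell cannot be told apart, and the part of these cells in the differences was not tested. Omission of 1 RA day 2 sample ended calls of Cnn1 (adjusted p = 0.079 without low), Myl9 (adjusted p = 0.081 without medium, 0.052 without low), Fn1 (adjusted p = 0.11 without medium) and Lmo2 (adjusted p = 0.20 without medium, 0.21 without low). Omission of 1 day 5 sample ended calls of Lmo2 (adjusted p = 0.16 without medium, 0.17 without low).

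**Figure D4:**
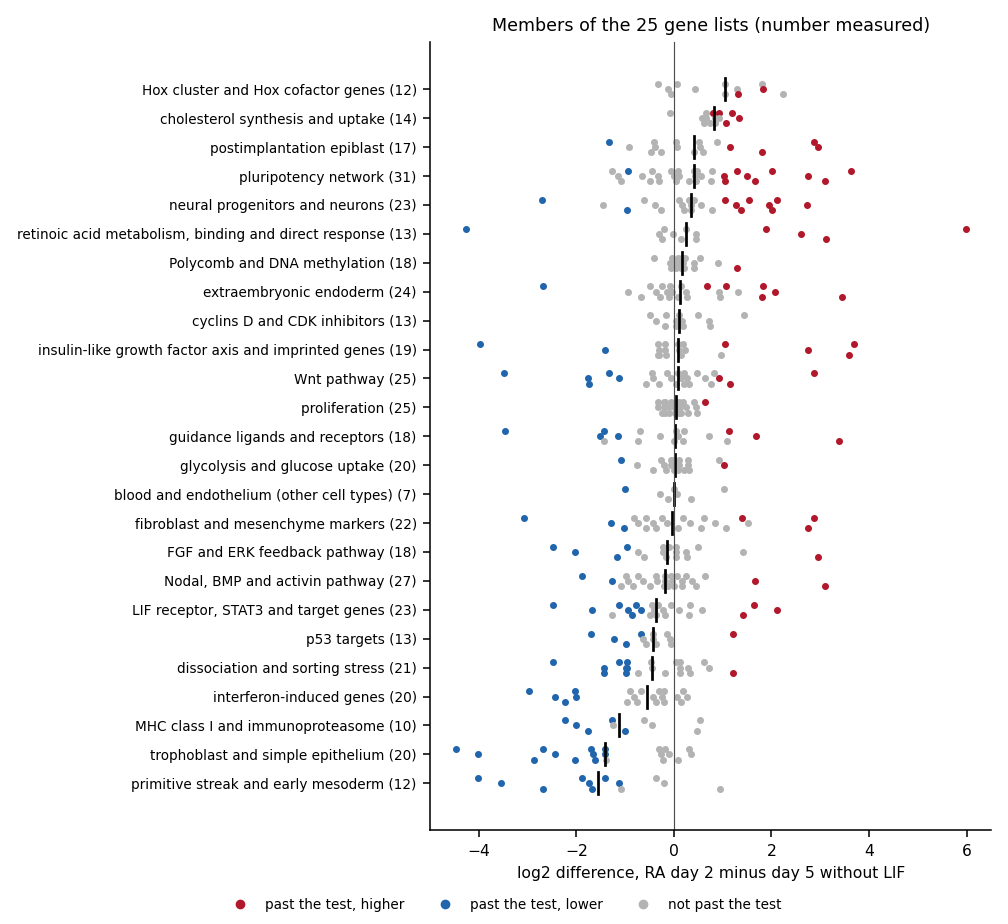
Difference between RA day 2 and day 5 without LIF (x axis, log2) for the measured members of 25 gene lists, ordered by median from the highest at the top, with 1 point per gene and a black bar at each list's median. Red and blue points are past the test; Hox genes have the highest median and streak genes the lowest, and most lists hold points of both colours or mainly grey ones.

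The other arms place these levels, but those in LIF, at day 3 and at RA day 1 were scanned on other days, which cannot be told apart from the arms. Dppa2, Trap1a and Dppa5a were at 807 to 925, 323 to 443 and 3299.7 to 3840.2 at day 3 without LIF and at 997 to 1575, 1144 to 1758 and 5696 to 6883 in LIF, above the day 5 signals in each case. Sprr2b was at 112 to 146 at day 3 without LIF and at 83.3 to 114 in LIF, both far below day 5. Gbp2 was at 10.7 to 36.2 at RA day 1, 6.19 to 10.8 at day 1 without LIF, 52.5 to 61.2 at day 3 and 3.78 to 11.5 in LIF. RA day 2 thus lay above all of these for Gbp2, although far below day 5. Mest was at 889.7 to 1081 at RA day 1, against 162 to 192 in LIF and 302 to 390.0 at day 3, and lay highest in RA day 2. Stra8 was at 308 to 361 at RA day 1 and at 14.8 to 113 in LIF. Crabp1 was at 71.8 to 98.3 at RA day 1, beside 74.6 to 89.9 in LIF. The comparisons of these arms share samples with this one and were not tested against it.

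**Figure D5:**
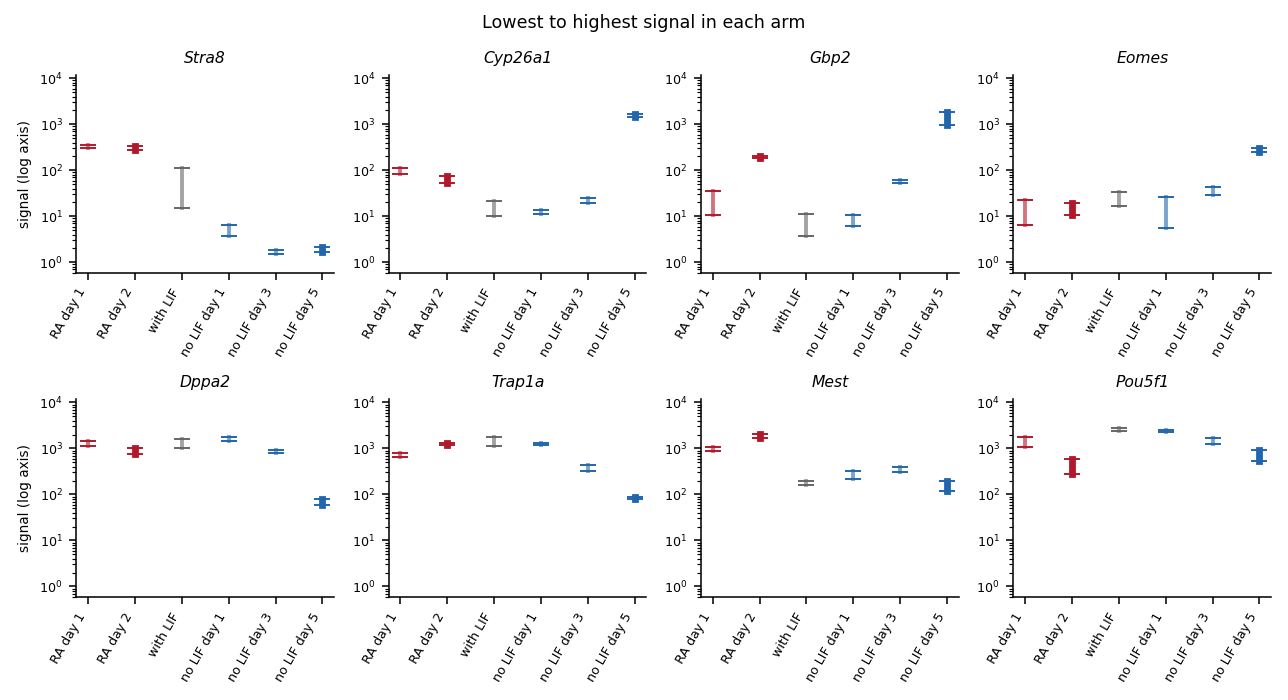
Lowest to highest signal (y axis, log scale) of 8 genes in each arm (x axis), with RA in red, cells without LIF in blue and cells with LIF in grey, and the 2 compared arms drawn thicker; the doubted day 1 library is left out. Stra8 is high in both RA arms, Cyp26a1, Gbp2 and Eomes are highest at day 5, and Dppa2 and Trap1a are lowest at day 5.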

How the data were processed

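Total RNA of 18 samples was measured on 2 Affymetrix chips. The deposited values are signal intensities per probe set that the authors made with MAS5, per the submitters' processing notes, with no version given in the sources used here. Their trimmed mean, 2% removed from each end, is the same on every array of a chip type, and they were used without further normalization. Scan day and chip lot came from the deposited run records. Gene symbols came from the platform annotation, in which 10833 chip A probe sets have 1 symbol, 396 several and 1193 none, against 10581, 178 and 1652 on chip B; only those with 1 are named. Promoter sequences came from RefSeq (GRCm38.p6).

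Values were analysed in R 4.3.3 with limma 3.58.1 (statmod 1.5.0 for the random block) as log2(intensity + pseudocount), 4 on chip A and 7 on chip B, over the brightest 60% of probe sets (7453 and 7447). All 18 samples entered a model of arm and gate (lmFit, eBayes, two-sided, Benjamini-Hochberg within chip). The fit was tested on simulated data. Each gene is read on its brightest probe set, taken on chip A where it has one there. Named genes are the 12 largest rises and falls past the test, up to 4 members of each of 25 lists with the smallest p, and 13 genes of interest (Stra8, Gbp2, Eomes, Pou5f1, Nanog, Sox2, Zfp42, Klf4, Socs3, Cyp26a1, Hoxb1, Sox1 and Gata6). Other list members were named to describe their list. Members, lists and promoters were chosen with earlier results of these data known. List genes under the brightness filter come from a fit of all probe sets. Alternatives are given at the end.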

Additional observations from a re-analysis of the deposited data

How the results depend on the processing

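Over all probe sets, 1216 were past the test, 571 higher and 645 lower in RA day 2. The medium and low gates alone gave 607 (290 higher, 317 lower), as did the 5 samples alone, because the day 5 high sample is then fitted by its own gate term. Scan day as a fixed block gave 1866 calls, 901 of them higher. An absolute log2 difference of at least 1 was met by 699 of the calls (327 higher, 372 lower). Leaving out 1 sample gave 375 to 912 calls, with 164 to 446 higher and 211 to 466 lower. There were 375 without the RA day 2 medium sample and 562 without the low one, fits in which the lone RA day 2 sample is assumed to vary like the other arms, and 766 without the day 5 medium sample. Quantile normalization, a pseudocount 4 times as large, no brightness filter, a stricter filter, no gate term, the shared scan day alone, the fit without the doubted day 1 library and scan day as a random block gave 1051 to 1684 calls, each within 1.5 times of 1216. None of the 110 named genes changed direction under these refits, as far as its probe set passed the filter. Without the doubted day 1 library, calls in the Nodal, BMP and activin list were 5 lower, against 2 with it, and the fibroblast list held 5 higher, against 3. Over all genes that refit gave 598 higher and 676 lower, against 420 and 502. Another probe set of the same gene had the opposite sign for Cubn (-0.091), Fdps (-0.31), Nr4a1 (0.37), Socs3 (0.13), Bcl3 (0.031) and Dab2 (-0.10), and the cause was not tested. Of the 124 called genes that are named or listed, 124 were still past the test without the doubted day 1 library, 117 in the shared scan day alone and 97 in the medium and low gates alone. In the shared scan day alone, Bcl3, Icam1, Socs3, Sox1, Sox7, Trp53inp1 and Wnt3a missed the test. No paired analysis was possible because the RA day 2 and day 5 samples carry no replicate numbers. The number of arrays limits the precision. Detection calls were not analysed here, so which low signals, such as those of Stra8 in day 5, exceed background is not known.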

Other observations

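The genes below lie outside the lists and were chosen after their values were seen, so they are given as a description. The Hedgehog targets Gli1 and Ptch1 were higher in RA day 2 cells. Gli1, a transcription factor that the pathway both uses and induces, gave signals of 42.8 and 44.1 in RA day 2, against 3.95, 2.86 and 8.02 in day 5 (log2 difference 2.46 ± 0.30, adjusted p = 8.5e-05). Ptch1, the Hedgehog receptor and a target of its own pathway, was measured at 610.4 and 469 in RA day 2, against 63.3, 139 and 160.5 in day 5 (log2 difference 2.02 ± 0.41, adjusted p = 0.0056). Both lay above every day 5 sample, whereas the ligand Shh overlapped between the arms (log2 difference 0.40 ± 0.52, adjusted p = 0.73). Gli2 had a log2 difference of 1.20 ± 0.28 (adjusted p = 0.012), and Nkx6-2, a homeobox factor of the ventral neural tube, one of 2.34 ± 0.34 (adjusted p = 0.00038). The neuronal cytoskeleton genes Prph, Ina and Crmp1 were higher as well. Prph, the intermediate filament peripherin, had signals of 173 and 158 in RA day 2, against 14.4, 24.6 and 26.2 in day 5 (log2 difference 2.76 ± 0.46, adjusted p = 0.0012). Ina, the filament alpha-internexin, gave signals of 446 and 352 in RA day 2, against 73.5, 76.8 and 86.0 in day 5 (log2 difference 2.26 ± 0.29, adjusted p = 0.00013). Crmp1, a microtubule regulator of growing axons, was measured at 354 and 248 in RA day 2, against 56.0, 65.1 and 73.9 in day 5 (log2 difference 2.12 ± 0.24, adjusted p = 4.5e-05). The names of the Prph and Ina probe sets mark them as sets that can bind messages of related genes. Beside Sprr2b, Crct1 and Slit3, such names were also carried by the probe sets of Socs3, Fdps, Cnn1, Bmp4, Fzd3, Zfp36, Meis1 and Fgf8. The Notch pathway genes Nrarp, Dner and Hes1 were lower in RA day 2, as was the ligand Dll1. Nrarp, a feedback regulator and target of Notch, had signals of 62.4 and 104 in RA day 2, against 441, 496 and 465 in day 5 (log2 difference -2.46 ± 0.37, adjusted p = 0.0017). Dner, a transmembrane protein with EGF repeats that binds Notch, gave signals of 37.8 and 57.8 in RA day 2, against 342, 349 and 256 in day 5 (log2 difference -2.67 ± 0.29, adjusted p = 0.00013). Hes1, a repressor that Notch induces, was measured at 326 and 285 in RA day 2, against 742, 724 and 614 in day 5 (log2 difference -1.19 ± 0.20, adjusted p = 0.0015). None of the 3 overlapped between the arms, while 23.7% of all genes were lower in RA day 2 without overlap.

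The germ cell genes Dmrt1, Meioc and Tex19.1 and the homeobox gene Rhox5 were higher in RA day 2, like Stra8, and were also chosen after their values were seen. Dmrt1, a factor of the testis and germ line, had signals of 97.8 and 73.1 in RA day 2, against 21.7, 19.8 and 12.2 in day 5 (log2 difference 2.18 ± 0.25, adjusted p = 4.8e-05). Meioc, a meiotic regulator, gave signals of 115 and 89.6 in RA day 2, against 23.2, 21.2 and 22.2 in day 5 (log2 difference 2.02 ± 0.27, adjusted p = 0.00075). Tex19.1, a gene of germ cells and pluripotent cells that holds back transposons, was measured at 155 and 122 in RA day 2, against 31.5, 27.0 and 30.5 in day 5 (log2 difference 2.08 ± 0.28, adjusted p = 0.00024). Rhox5, an X-linked homeobox gene, had signals of 432 and 428 in RA day 2, against 61.0, 69.4 and 91.3 in day 5 (log2 difference 2.29 ± 0.38, adjusted p = 0.0012). All 4 lay above every day 5 sample, and Dazl, an RNA-binding protein of germ cells, was not past the test (log2 difference -0.04 ± 0.18, adjusted p = 0.93). Folr1, a folate receptor, gave signals of 864 and 887 in RA day 2, against 146, 132 and 147 in day 5 (log2 difference 2.60 ± 0.21, adjusted p = 2.1e-06). Annexin A2, its partner S100a10 and the actin regulator Capg were lower in RA day 2. S100a10 was measured at 892 and 1174 in RA day 2, against 5542, 5004 and 3636 in day 5 (log2 difference -2.23 ± 0.23, adjusted p = 2.2e-05). Anxa2 had signals of 248 and 366 in RA day 2, against 1368, 1207 and 1482 in day 5 (log2 difference -2.34 ± 0.30, adjusted p = 0.00014). Capg, an actin capping protein, gave signals of 55.2 and 43.8 in RA day 2, against 359, 272 and 326 in day 5 (log2 difference -2.63 ± 0.19, adjusted p = 6.5e-07). The apelin receptor Aplnr, a receptor of early mesoderm, had a log2 difference of -2.65 ± 0.25 (adjusted p = 3.6e-05) on chip B, where lot and arm cannot be told apart.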
